A study of Mus musculus with 43 samples.

Results

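Small RNAs of the luminal fluid of the caput epididymis, the segment next to the testis, were compared between Rnase9-12 KO and WT mice. The comparison comprised the 3 KO and 3 WT caput fluid libraries, 6 of the 43 small RNA libraries of the series, and used every RNA class that was counted in them. The mice were FVB animals of 8 to 12 weeks. KO mice were homozygous for a CRISPR/Cas9 deletion of the chromosome 14 cluster that holds Rnase9, Rnase10, Rnase11 and Rnase12 (Rnase9-12 −/−) from birth and in all tissues, and WT mice carried the intact cluster (Rnase9-12 +/+). RNA of 3 mice was pooled for each fluid library, so the error between libraries is the error between pools. The fluid was freed of sperm and debris in low-speed spins and then of vesicles by ultracentrifugation. It was treated with polynucleotide kinase (PNK), which repairs RNA ends left by cleavage, and sequenced by OTTR-seq, a template-jumping method for short RNAs. Corpus fluid and cauda fluid (6 libraries each) were fitted together with caput fluid, so they enter the filter, scaling and error estimate of the main fit. Apart from that, they and caput tissue (6 libraries) are used below only to show where caput fluid differs.

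Rnase9, Rnase10, Rnase11 and Rnase12 belong to the RNase A family, secreted proteins of which the founding member cuts single-stranded RNA after pyrimidines, and the 4 genes are expressed mainly in the epididymis. Small RNAs of the epididymal lumen are for the most part pieces of longer, abundant RNAs. Cleavage of a tRNA in the anticodon loop gives a 5′ and a 3′ fragment (tRF_5′ and tRF_3′), and reads that cover neither end are counted here as tRF_other. Pieces of ribosomal RNA are rsRNAs. Fragments of this kind change in sperm during transit through the epididymis, and the caput is the segment in which Rnase10 is strongest. A full-length tRNA is counted where a read ends within 3 bases of the 5′ end and within 5 bases of the 3′ end of a mature tRNA.

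The caput fluid table listed 3178 RNAs, and total counts were 8117232, 6072858 and 8274251 in the WT libraries and 8854684, 10938460 and 9344789 in the KO libraries. The section field of the caput fluid labels reads cauda, whereas titles and column names read CP, and the latter were followed. No transcript of the deleted genes is among the counted RNAs, so the genotype of these libraries was not checked from the counts. Levels are given as CPM, counts scaled to the TMM-adjusted library size, and log2 CPM of the 6 libraries correlated with a Pearson r of 0.960 to 0.985 across RNAs (not independent replicates), and the first principal component (38.1% of the variance) had the 3 WT libraries between −0.45 and −0.32 and the 3 KO libraries between 0.25 and 0.58. KO 1 stood apart from the other 2 KO libraries in several RNA classes, so values without it are given where they differ.

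Of 33 miRNA genes listed as markers of other cell types, edgeR on the 18 libraries called 0, as did edgeR on the 6 caput libraries and DESeq2 on the 18 or the 6. The miR-200 genes, listed for epithelium, are not among the 33 and are described below. Summed over the detected genes, erythroid miRNAs had 25.02, 23.6 and 24.3 CPM in WT and 15.4, 45.6 and 28.3 CPM in KO, and leukocyte miRNAs (3 of 4 genes tested) had 11.3, 10.5 and 8.38 CPM in WT and 13.8, 19.8 and 16.8 CPM in KO. The leukocyte sums were higher in every KO library. Smooth muscle miRNAs had 139, 76.8 and 104 CPM in WT and 99.5, 136 and 189 CPM in KO, endothelial miRNAs 29.1, 16.97 and 16.2 CPM in WT and 22.8, 32.9 and 38.4 CPM in KO and striated muscle miRNAs (4 of 5 genes tested) 7.19, 2.45 and 7.49 CPM in WT and 3.39, 4.61 and 6.77 CPM in KO. These 3 sums overlapped between genotypes. Germ cell miRNAs (14 of 19 genes tested) had 3.59, 3.67 and 5.54 CPM in WT and 7.25, 5.27 and 6.36 CPM in KO, with Mir742 at 0 in all 6 libraries and Mir743b at 0 in the 3 WT libraries. In fluid, a larger number of shedding cells and more RNA per cell cannot be told apart, and the part of these cells in the results below was not tested.

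To ask which small RNAs of caput fluid depend on the Rnase9-12 cluster, KO was compared with WT for 2023 RNAs that passed the filter on low counts. With edgeR's quasi-likelihood test on the 18 fluid libraries, none was called at an adjusted p under 0.05 with a fold change above 2 in either direction (0 lower, 0%, and 0 higher, 0%). The smallest adjusted p was 0.139. At a nominal (unadjusted) p under 0.05, 104 RNAs (5.14%) were lower and 110 (5.44%) were higher in KO. All 3 KO libraries lay below all 3 WT libraries for 256 RNAs (12.7%) and above them for 270 (13.3%). Over all RNAs tested, 1003 log2 fold changes were below 0 and 1020 above, with a median of 0.01. Leaving out 1 library at a time gave 32 to 99 lower and 76 to 114 higher RNAs at that nominal p, and each library but KO 3 moved the count of lower RNAs by more than 1.5 times, to 57 without WT 1, 41 without WT 2, 50 without WT 3, 52 without KO 1 and 32 without KO 2.

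How many RNAs passed depended on the tool and on the libraries in the fit. DESeq2 on the 18 libraries called 2 RNAs lower (0.0867% of 2308 with an adjusted p) and 7 higher (0.303%). These 9 were the full-length tRNA-Glu-CTC-1 and tRNA-Lys-CTT-2, antisense reads of tRNA-Thr-AGT-1, -2 and -3, the tRNA-Arg-ACG-1-1 locus and Gm22982 (higher), and the tRF_5′ of tRNA-Thr-AGT-2 and -4 (lower). edgeR on the 6 caput libraries alone called 0 lower (0%) and 28 higher (1.65% of 1695). DESeq2 on the same 6 libraries called 68 lower (4.02% of 1692) and 63 higher (3.72%). The 9 RNAs were all among these 131, 27 of the 28 were as well, and 6 RNAs were called by all 3 of these fits. Of the 131, the lower ones were 40 tRF_other, 18 snRNA genes and 10 tRF_5′, and the higher ones included 26 miRNA genes and 16 full-length tRNAs. Many copies of Mir669a, which share reads, were among the calls of both fits on the 6 libraries.

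**Figure D1:**
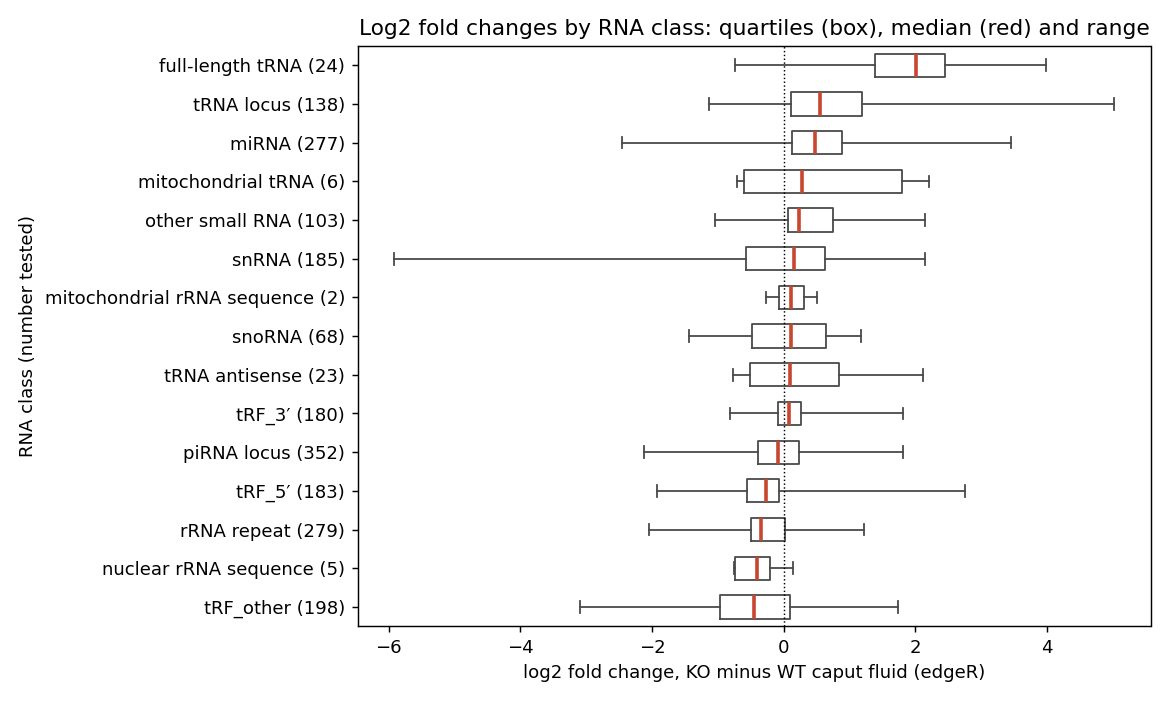
Log2 fold changes (KO against WT, x axis) of the RNAs tested in each RNA class of caput fluid (y axis, with the number tested), from edgeR on 18 fluid libraries. Boxes span the quartiles, the red line is the median and whiskers the full range; the full-length tRNAs have the highest median (2.0) and tRF_other the lowest (−0.46), beside 0.01 over all RNAs.

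The share of counts of each class covers every listed member, and had its highest ratio of KO to WT in full-length tRNA and its lowest in nuclear rRNA sequences. A read shared by several members of a class enters its share on each of them. Full-length tRNA took 0.0248, 0.0396 and 0.0148% in WT and 0.276, 0.0618 and 0.0716% in KO of all counts, a mean 5.17-fold higher in KO, or 2.52-fold without KO 1. The exact 2-sided permutation p was 0.1, the smallest that 3 against 3 libraries can give, and 0.5 after Benjamini-Hochberg adjustment over 15 classes. Nuclear rRNA sequences took 7.33, 8.50 and 9.41% in WT and 4.53, 6.597 and 6.05% in KO, and reads on genomic tRNA loci took 0.0463, 0.0509 and 0.0478% in WT and 0.0850, 0.0738 and 0.0580% in KO (exact p = 0.1 and adjusted p = 0.5 for both). For these 3 classes the KO and WT libraries did not overlap. The bulk of the fluid RNA was tRF_3′, with 42.4, 42.6 and 44.0% in WT and 48.8, 42.0 and 51.5% in KO, and tRF_5′, with 34.1, 31.1 and 30.3% in WT and 29.4, 34.1 and 30.6% in KO, and both overlapped between genotypes. The tRF_other took 2.30, 2.63 and 1.75% in WT and 4.04, 1.07 and 1.03% in KO, with KO 1 the highest and the other 2 KO libraries the lowest of the 6. The snRNAs took 4.23, 5.67 and 5.801% in WT and 4.10, 4.58 and 3.06% in KO and the miRNAs 1.125, 1.20 and 1.27% in WT and 1.05, 1.60 and 1.07% in KO.

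**Figure D2:**
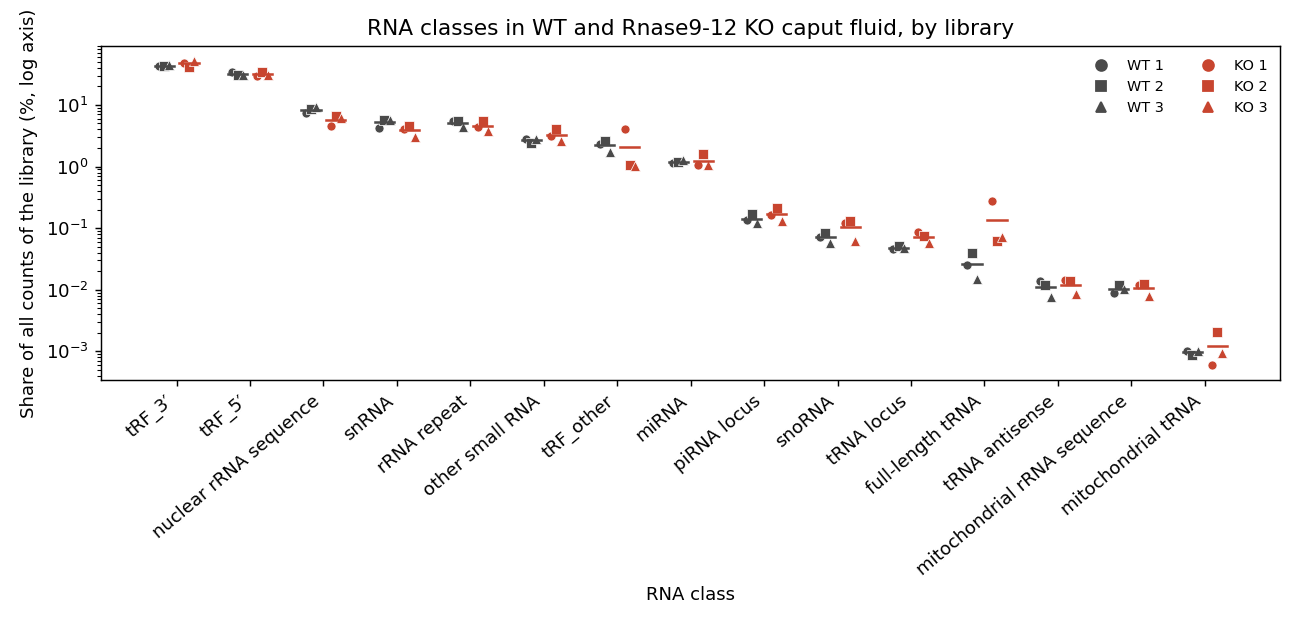
Share of all counts (percent, log axis) of each RNA class in the 3 WT and 3 KO caput fluid libraries, 1 point per library with a line at the mean of 3. Full-length tRNA lies at 0.0148% to 0.0396% in WT and at 0.0618% to 0.276% in KO, while tRF_5′ and tRF_3′, the largest classes, overlap.

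Full-length tRNAs were the class with the largest differences. All 215 listed entries together had 2015, 2407 and 1225 counts in WT and 24452, 6757 and 6691 counts in KO. As a share of tRNA and tRF counts this was 0.0315, 0.0519 and 0.0195% in WT (mean 0.0343% ± 0.0164 SD, n = 3) and 0.335, 0.0800 and 0.0861% in KO (0.167% ± 0.145, n = 3). The KO libraries were all above the WT libraries, with KO 1 about 4-fold above the other 2. Only 24 of the 215 entries passed the filter, so the others are not described one by one. Of the 24, 23 had a log2 fold change above 0, with a median of 2.0, and 12 had a nominal p under 0.05 (0 in the other direction). Selenocysteine tRNA-SeC-TCA-1 was the exception, with -0.73, where WT 1 alone lay above the KO libraries. It had 74, 2 and 2 counts in WT and 21, 23 and 19 counts in KO. Of the 24, 2 passed the filter only through the KO caput libraries, where they had to be high, so the counts describe entries that passed and are no support for the class. The median of the other 22 was 1.81, and with no filter 64 of 89 entries with any count were above and 15 below 0 (median 1.52). In DESeq2 on the 18 libraries, without that filter, the class median was 0.71 above that of all RNAs, against 1.99 in edgeR. Without KO 1 the edgeR median was 1.5, still with 23 of 24 above 0, and 3 had a nominal p under 0.05, as many as without WT 3. Leaving out any other library left 10 to 12.

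The full-length tRNA with the smallest p was tRNA-Glu-CTC-1, a glutamate acceptor, with 16, 2 and 7 counts in WT and 329, 97 and 65 counts in KO. This was 2.13, 0.350 and 1.05 CPM in WT and 31.0, 7.99 and 8.80 CPM in KO (log2 fold change 3.71 ± 0.89 (SE), edgeR adjusted p = 0.139). The lysine tRNA-Lys-CTT-2 had 1.20, 0.175 and 0.749 CPM in WT and 18.2, 9.72 and 7.58 CPM in KO (log2 fold change 3.99 ± 0.99). Both rested on a few counts per WT library, and tRNA-Lys-CTT-2 was chosen after its values were seen. The most abundant entry, tRNA-Asp-GTC-1, had 25.8, 143 and 25.7 CPM in WT and 1018, 121 and 186 CPM in KO, so that WT 2 lay above KO 2. Likewise the second most abundant, tRNA-Glu-TTC-2, had 22.2, 60.7 and 20.5 CPM in WT and 248, 59.4 and 145 CPM in KO, and WT 2 again lay above KO 2 (log2 fold change 2.13 ± 0.80 (SE), edgeR adjusted p = 0.290).

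Isodecoders, tRNAs of 1 anticodon with small differences in sequence, share reads, and each read was counted on every entry that it matched equally well. Counts were also summed by anticodon and fragment type, which gave 164 sums tested beside all other RNAs. A read shared by several isodecoders enters such a sum on each of them. None was called (0 lower, 0%, and 0 higher, 0%, with edgeR). At a nominal p under 0.05, 16 sums (9.76%) were lower and 8 (4.88%) higher, and libraries did not overlap for 19 lower sums (11.6%) and 17 higher sums (10.4%). Of the 15 full-length sums, 14 were above 0 (median 1.74), 7 had a nominal p under 0.05 and 12 were higher in every KO library. KO 1 was the highest library in 12 of the 15. Leaving out KO 1 left 27 sums lower and 2 higher at a nominal p under 0.05.

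The paper names fragments of 6 anticodons as lower in KO cauda tissue, which is another segment and sample type than caput fluid. It does not name their full-length tRNAs there. Of these 6 anticodons, glycine tRNA-Gly-GCC had full-length sums of 19.4, 30.1 and 16.6 CPM in WT and 189, 59.7 and 71.8 CPM in KO (log2 fold change 2.28 ± 0.89 (SE), edgeR adjusted p = 0.383). tRNA-Glu-TTC had 26.3, 97.6 and 35.5 CPM in WT and 556, 97.8 and 227 CPM in KO (log2 fold change 2.47 ± 0.94). For tRNA-Glu-TTC, KO 2 (97.8 CPM) and WT 2 (97.6 CPM) were nearly level. Its single entries tRNA-Glu-TTC-1 (45.5 and 39.8 CPM) and tRNA-Glu-TTC-2 (60.7 and 59.4 CPM) had WT 2 above KO 2. For tRNA-Gly-GCC, all KO libraries were above all WT libraries. The genotypes did not overlap either for tRNA-Gly-CCC, tRNA-Val-AAC, tRNA-Val-CAC or tRNA-Gln-TTG, with log2 fold changes of full-length sums of 1.91, 1.54, 1.63 and 1.55. None of these passed the adjusted test, with p from 0.383 to 0.605 after adjustment in edgeR.

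**Figure D3:**
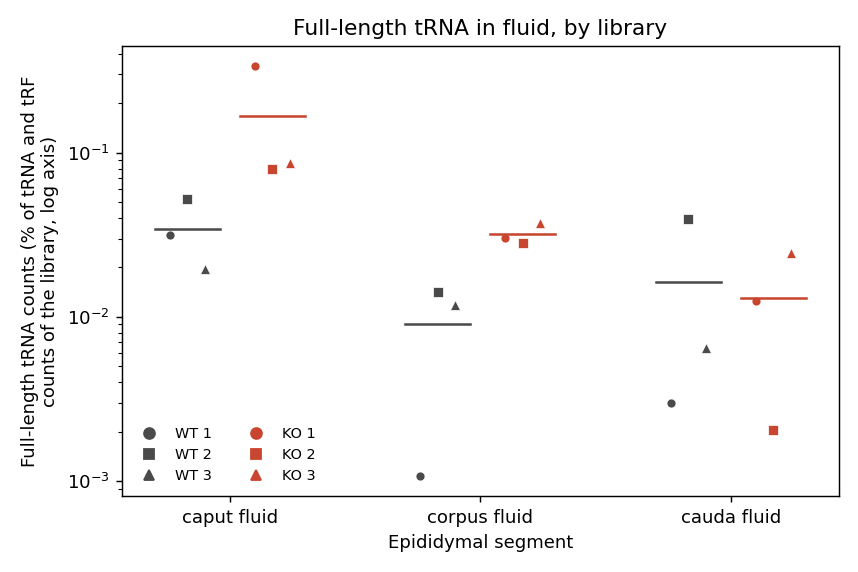
Full-length tRNA as a percent of tRNA and tRF counts (y axis, log scale) in each fluid library of the caput, corpus and cauda, by genotype, with lines at the means of 3. Caput KO libraries (0.0800% to 0.335%) lie above caput WT libraries (0.0195% to 0.0519%), as do those of the corpus, whereas the cauda libraries overlap.

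The share was also higher in KO corpus fluid, where it was 0.00108, 0.0142 and 0.0118% in WT and 0.0302, 0.0284 and 0.0373% in KO. In cauda fluid the genotypes overlapped, with 0.00300, 0.0394 and 0.00647% in WT and 0.0125, 0.00205 and 0.0246% in KO. The share of counts was larger in every WT caput library than in every WT corpus library, and the range in WT cauda fluid overlapped that of WT caput fluid. According to the paper, the method favours shorter RNAs and captures only part of the full-length tRNAs. These shares therefore describe counts and not the amount of full-length tRNA in the fluid.

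Reads on tRNA loci, which are counted where a read matches the genomic gene with its flanks better than the mature tRNA, and thus include precursors, were also higher in KO. Of 235 loci listed, 138 were tested, with 108 log2 fold changes above 0 and a median of 0.54. Of these, 16 had a nominal p under 0.05 (8 to 13 when 1 library was left out) and 37 did not overlap (26.8%, beside 13.3% of all RNAs), all of them higher in KO. The locus with the smallest p of all RNAs was tRNA-Arg-ACG-1-1, an arginine tRNA gene, with 1.86, 2.80 and 2.69 CPM in WT and 10.9, 10.5 and 8.39 CPM in KO (log2 fold change 2.02 ± 0.46 (SE), edgeR adjusted p = 0.139). Its KO and WT libraries were separate. The same locus was called higher in KO corpus fluid, with 0, 0.188 and 0 CPM in WT and 2.41, 2.16 and 1.66 CPM in KO (adjusted p = 0.00167 with edgeR).

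The tRF_5′, the 5′ fragments, had log2 fold changes below 0 for most isodecoders. Of 215 listed, 183 were tested, 146 had a log2 fold change below 0 (median −0.27), and 18 had a nominal p under 0.05, all lower. Libraries did not overlap for 24 lower (13.1% of those tested, beside 12.7% of all RNAs) and 1 higher tRF_5′. Without KO 1, 119 of 184 were below 0 and 3 had a nominal p under 0.05, as without KO 2, and without WT 2 there were 2. Summed by anticodon, 31 of 49 were below 0 (median −0.10) and 4 had a nominal p under 0.05. By amino acid, all 23 alanine tRF_5′ were below 0 (median −0.56) and so were all 16 leucine (−0.49) and all 8 threonine tRF_5′ (−0.54), whereas 14 of 19 arginine tRF_5′ were above 0. Alanine tRNA-Ala-AGC had tRF_5′ sums of 10455, 19419 and 17194 CPM in WT and 7397, 7646 and 11475 CPM in KO, with WT 1 below KO 3.

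Threonine tRNA-Thr-AGT stood out among the tRF_5′. Its isodecoder tRNA-Thr-AGT-2, with the same counts as tRNA-Thr-AGT-4, had 14.2, 7.87 and 13.9 CPM in WT and 2.17, 3.95 and 4.60 CPM in KO (log2 fold change -1.75 ± 0.42 (SE), edgeR adjusted p = 0.139). The anticodon sum was 28.8, 17.9 and 31.4 CPM in WT and 7.28, 10.1 and 11.6 CPM in KO (log2 fold change -1.43 ± 0.39, adjusted p = 0.136 with edgeR). In the opposite direction, its tRF_other sum was 26.1, 15.1 and 24.3 CPM in WT and 81.3, 44.4 and 51.6 CPM in KO (log2 fold change 1.44 ± 0.48, adjusted p = 0.297). Antisense reads of tRNA-Thr-AGT-1, which match the strand opposite the tRNA, had 1.60, 1.05 and 1.80 CPM in WT and 8.47, 7.33 and 3.65 CPM in KO (log2 fold change 2.12 ± 0.50 (SE), edgeR adjusted p = 0.139). For all 3 measures the genotypes did not overlap. Of 23 antisense entries tested (215 listed), the 4 with a nominal p under 0.05 were tRNA-Thr-AGT-1, -2, -3 and -5, and their reads are shared. The tRNA-Thr-AGT sums and the tRNA-Ala-AGC sum were chosen after their values were seen.

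The most abundant tRF_5′ were those of glutamate and glycine tRNAs, which overlapped. tRNA-Glu-CTC-1 had 40459, 25962 and 39737 CPM in WT and 25631, 38524 and 46216 CPM in KO, and tRNA-Gly-GCC-2 had 39276, 34642 and 43891 CPM in WT and 25730.5, 31390.3 and 41181 CPM in KO. The tRF_5′ sums of the same 6 anticodons all overlapped too, with log2 fold changes between -0.12 and 0.14, and those above 0 (Gly-CCC, Val-AAC, Val-CAC and Gln-TTG) were below 0 with DESeq2 size factors. For example, tRNA-Gly-GCC had tRF_5′ sums of 111289.8, 98341 and 133988 CPM in WT and 93511, 95472 and 131411 CPM in KO (log2 fold change -0.10 ± 0.31 (SE), edgeR adjusted p = 0.920).

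Among the tRF_3′, the 3′ fragments, none passed at a nominal p. Of 180 tested (215 listed), 104 were above and 76 below 0 (median 0.08), with 0 at a nominal p under 0.05 in edgeR and 0 called in DESeq2 on the 18 or the 6 libraries. The 2 most abundant, tRNA-His-GTG-2 and -3, share reads, and the former had 39039.7, 30897 and 40279 CPM in WT and 25171, 30444 and 48055 CPM in KO. The smallest p was that of tRNA-Gly-CCC-2, with 20.0, 24.3 and 27.5 CPM in WT and 88.9, 21.6 and 27.5 CPM in KO (edgeR adjusted p = 0.470), where KO 1 alone was high. Summed by anticodon, 42 of 49 tRF_3′ were above 0 with a median of 0.25, and the 6 anticodons of the study lay between 0.26 and 0.67, all overlapping. With TMM factors set on the remaining RNA classes alone, Gly-GCC, Gln-TTG and Glu-TTC were below 0.

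Internal fragments, the tRF_other, were the class with the most RNAs lower at a nominal p in edgeR. Of 198 tested (215 listed), 139 were below 0 (median −0.46), and 51 were lower and 5 higher at a nominal p under 0.05. Libraries did not overlap for 65 lower ones (32.8%, beside 12.7% of all RNAs) and 7 higher ones (3.54%, beside 13.3%). Without KO 1, 157 of 198 were below 0, and 43 were lower and 4 higher at a nominal p under 0.05. Leaving out WT 1, WT 3 or KO 2 left 18, 30 and 15 lower ones, and without WT 2 there were 33. All tested tRF_other of arginine (18), glutamine (10), asparagine (4), phenylalanine (3), tyrosine (5), tryptophan (6), isoleucine (5) and cysteine (22) were below 0. Summed over its entries, arginine tRF_other had 3434, 2584 and 2799.6 CPM in WT and 1443, 1029.9 and 1269.5 CPM in KO (median -1.27 on the log2 scale). Glutamine tRF_other had 6776, 12461 and 6743 CPM in WT and 3951, 2602 and 3635 CPM in KO (median −1.31). For both amino acids the 3 KO libraries were the lowest.

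In glutamine, tRNA-Gln-CTG-4 had 560.2, 508 and 429.9 CPM in WT and 216, 128 and 183 CPM in KO of tRF_other (log2 fold change -1.51 ± 0.40 (SE), edgeR adjusted p = 0.163). The more abundant tRNA-Gln-CTG-2 had 1315, 2808 and 1412 CPM in WT and 848, 554 and 772 CPM in KO (log2 fold change -1.35 ± 0.40, adjusted p = 0.177). The sum of tRNA-Gln-TTG was 1535, 1266 and 1206 CPM in WT and 892, 455 and 665 CPM in KO (log2 fold change -0.99 ± 0.40, adjusted p = 0.383 with edgeR). None overlapped between genotypes. In corpus fluid the tRNA-Gln-TTG sum had a log2 fold change of -2.19 (adjusted p = 0.00524), and the caput and corpus differences did not pass the test against each other (adjusted p = 0.309).

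For glycine, glutamate and valine tRF_other, KO 1 lay apart from the other 2 KO libraries. Glycine tRF_other together had 3694, 3101 and 2989 CPM in WT and 12321, 1283 and 1865 CPM in KO, and glutamate tRF_other had 1145, 1938 and 1486 CPM in WT and 5675, 636 and 811 CPM in KO. In both, KO 1 was the highest and KO 2 and KO 3 were the lowest of the 6 libraries, so the positive medians (0.66 and 0.61) rested on KO 1. Among single entries, tRNA-Glu-CTC-1 had 862, 1718 and 1198 CPM in WT and 4506, 548 and 693 CPM in KO. Over the 51 tRF_other sums, KO 1 was the highest library in 22 and KO 2 the lowest in 35. The valine sum tRNA-Val-CAC had 256, 256 and 269.8 CPM in WT and 1062, 138 and 199 CPM in KO, with KO 1 highest and KO 2 and KO 3 lowest. Without KO 1, the log2 fold changes of the sums turned from 0.94 to -1.19 (Gly-GCC), from 1.08 to -1.49 (Glu-TTC), from 0.84 to -0.86 (Val-CAC) and from 0.69 to -0.87 (Val-AAC).

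Nuclear rRNA sequences, the templates of rsRNAs, were lower in KO for 4 of 5 entries (median −0.41). The 28S_rRNA_1 sequence of the large ribosomal subunit had 36681, 42019.6 and 55045 CPM in WT and 16686, 26873 and 35542 CPM in KO (log2 fold change -0.76 ± 0.32 (SE), edgeR adjusted p = 0.362). A second 28S sequence, 28S_rRNA_2, had 38420.2, 43419 and 57104 CPM in WT and 17880.1, 28166 and 37232 CPM in KO (log2 fold change -0.74 ± 0.30, adjusted p = 0.327), with most reads shared. Both had every KO library below every WT library, and KO 1 was the lowest. The 5S sequence, also of the large subunit, had 903, 911 and 877 CPM in WT and 548, 738 and 733 CPM in KO (log2 fold change -0.41 ± 0.37), again without overlap. The 18S sequence of the small subunit had 3116, 3929.6 and 3447 CPM in WT and 2579, 3584 and 2921 CPM in KO, and the 5.8S sequence had 30.6, 42.7 and 35.0 CPM in WT and 40.5, 52.4 and 26.1 CPM in KO, and these overlapped.

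At a nominal p under 0.05, 2 nuclear rRNA sequences were lower in edgeR, and 0 when KO 1, WT 2 or WT 3 was left out (0 were called by DESeq2). Without KO 1, 3 of 5 were below 0. Of the mitochondrial sequences, SSU_mito (small subunit) had 11.8, 14.3 and 10.9 CPM in WT and 13.7, 23.6 and 15.2 CPM in KO, and LSU_mito (large subunit) had 82.9, 112 and 118 CPM in WT and 85.8, 88.9 and 85.1 CPM in KO. Partial rRNA copies annotated as repeats went the same way as the nuclear sequences, with 200 of 279 tested (352 listed) below 0 and a median of −0.34. By type, 127 of 156 tested copies of 5S were below 0 (median −0.40), as were 19 of 23 of 18S (−0.42), whereas the 100 tested copies of 28S had a median of −0.01. Of the 5S copies, 66 were lower without overlap (42.3%, beside 12.7% of all RNAs). The most counted, rmsk_18S_472 and rmsk_5S_741, had 1439, 1865 and 1648 CPM in WT and 1085, 1499 and 1299 CPM in KO, and 1013, 1004 and 965 CPM in WT and 598, 827 and 833 CPM in KO, respectively. The smallest p was that of rmsk_5S_464, with 2.79, 3.15 and 1.80 CPM in WT and 0.0942, 0.823 and 0.947 CPM in KO (log2 fold change -2.05 ± 0.76 (SE), edgeR adjusted p = 0.279). Of the repeats, 3 were lower and 1 higher at a nominal p under 0.05 in edgeR, and 0 in either direction without KO 1 (DESeq2 on the 6 libraries called 1 higher).

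Nuclear RNAs of the splicing machinery and of transcription control went in different directions. U1, the snRNA that pairs with the 5′ splice site, and 7SK, which holds the elongation factor P-TEFb inactive, are shown because they carry this contrast (sequences from the annotation of GRCm38, mm10). Both are in lower case throughout, and of 7SK the first 100 bases are shown.
Rnu1a1: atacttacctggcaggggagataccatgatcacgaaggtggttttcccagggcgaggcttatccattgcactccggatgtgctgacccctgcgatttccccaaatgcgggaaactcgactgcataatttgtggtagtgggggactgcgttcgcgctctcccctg
Rn7sk: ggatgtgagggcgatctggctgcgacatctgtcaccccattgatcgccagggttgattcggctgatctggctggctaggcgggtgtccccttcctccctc

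The first is Rnu1a1 (chr11:87422867-87423030, plus strand) and the second Rn7sk (chr9:78175303-78175633, minus strand). Rn7sk had 367, 508 and 376 CPM in WT and 1054, 999 and 738 CPM in KO (log2 fold change 1.16 ± 0.42 (SE), edgeR adjusted p = 0.278). Its KO libraries lay above all WT libraries. Rnu1a1 had 1476, 1817 and 2496 CPM in WT and 1217, 1402 and 1176 CPM in KO (log2 fold change -0.61 ± 0.36, edgeR adjusted p = 0.615). The U1 gene Rnu1b6 had 591, 908 and 1208 CPM in WT and 359.8, 429 and 519.7 CPM in KO (log2 fold change -1.05 ± 0.40 (SE), edgeR adjusted p = 0.290), and both U1 genes were lower in every KO library. Rnu1a1 and Rnu1b6 were chosen after their values were seen.

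Because many genes carry copies of these RNAs and share their reads, genes were also grouped by sequence, at 20% or more of 11-base words shared with a named gene, a grouping made after values were seen. Of 56 genes related to U1, 47 were below 0 (median −0.62), 21 were lower at a nominal p under 0.05, and 36 had every KO library below every WT library (64.3%, beside 12.7% of all RNAs). Their summed level was 27798, 37429.6 and 50170.1 CPM in WT and 21541, 25232 and 23029 CPM in KO. Of 18 genes related to 7SK, all were above 0 (median 0.79), 6 had a nominal p under 0.05 and 12 were higher in every KO library (66.7%, beside 13.3% of all RNAs). The summed levels of the 18 were 1813, 2608 and 2090.3 CPM in WT and 4343, 4289 and 3418 CPM in KO. The genes of a group share reads and do not count as separate observations. A shared read enters the summed level on each gene that it matched.

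U2, which pairs with the branch point, had 13 of 21 genes below 0 (median −0.47). Every KO library was below every WT library for 8 (38.1%, beside 12.7% of all RNAs) and above for 5 (23.8%, beside 13.3%). The summed level of U2 was 13058, 20463 and 19150.4 CPM in WT and 10788, 12749.7 and 11793 CPM in KO. Its most counted gene, Gm24950, with the same counts as Rnu2-10, had 1462, 2232 and 2118 CPM in WT and 1141, 1423 and 1322 CPM in KO (log2 fold change -0.58 ± 0.32), with every KO library below every WT library. U5, a part of the U4/U6.U5 complex, had 9 of 10 genes above 0 (median 0.70) with sums of 155, 133 and 136 CPM in WT and 181, 179 and 182 CPM in KO. The other 91 snRNA genes, with no match to these groups, had 68 above 0 (median 0.46), of which 13 had a nominal p under 0.05. Over the class, 185 of 294 snRNA genes were tested, 86 below and 99 above 0 (median 0.16), with 25 that were lower and 15 that were higher at a nominal p under 0.05. The former number was 3 without KO 1 or WT 2, 1 without WT 3 and 8 without KO 2, and the latter 8 without KO 1, 9 without WT 3 and 6 without KO 2. Of 19 tested entries named Rnu (20 listed), the 9 snRNAs had 6 below and 3 above 0, and the other 10 were U3 snoRNA entries, several with shared counts, all above 0. The snRNA with the smallest p, Gm23405, had 2.53, 0 and 0.299 CPM in WT and 0, 0 and 0 CPM in KO, at or near 0 counts in 5 libraries, and its fitted fold change is not given.

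**Figure D4:**
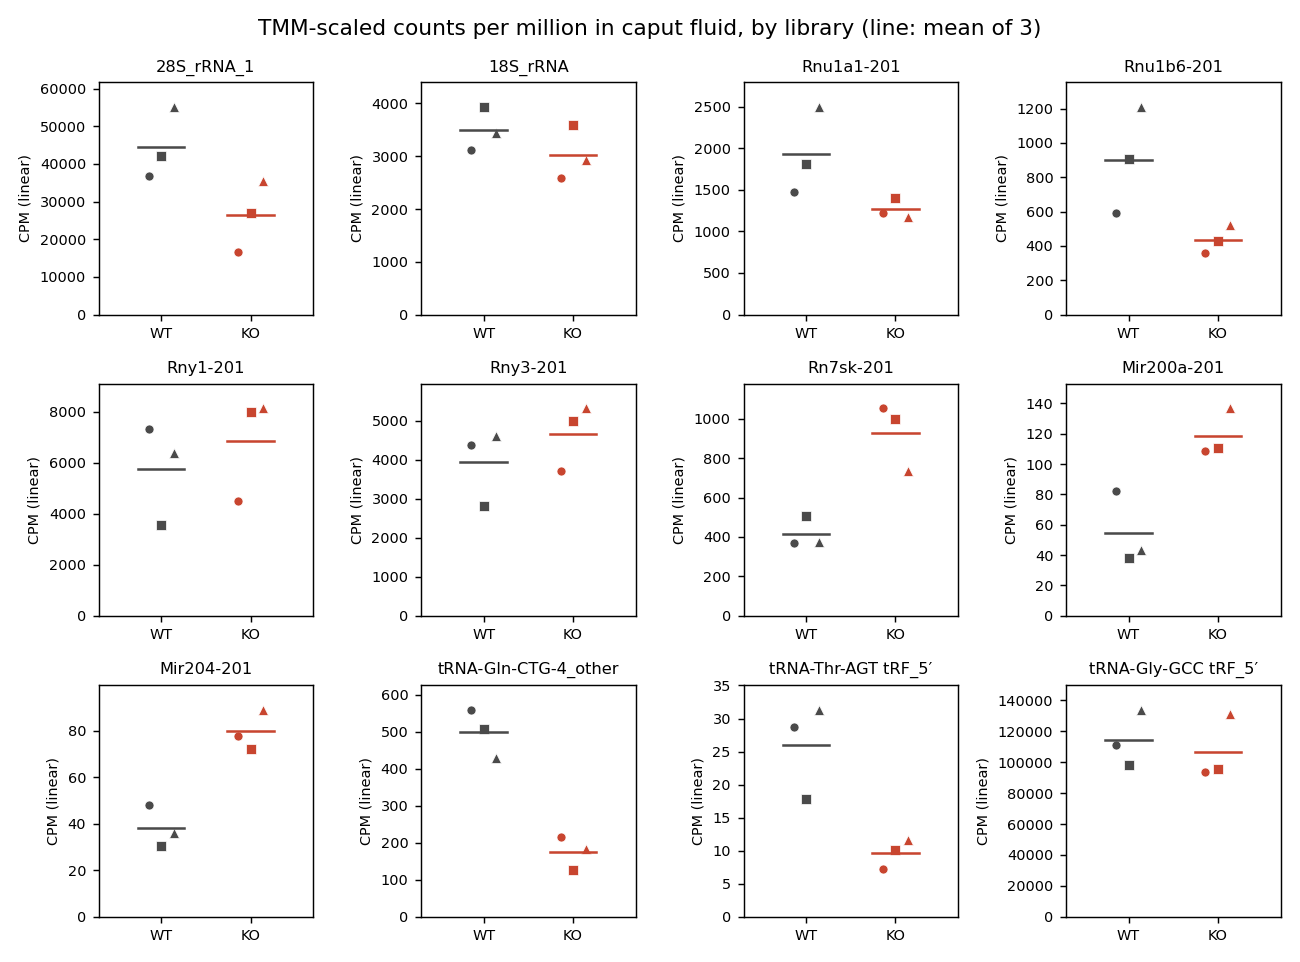
CPM (y axes, linear from 0) of 12 RNAs or anticodon sums in the 3 WT and 3 KO caput fluid libraries, 1 point per library with a line at the mean of 3. KO libraries are below all WT libraries for 28S_rRNA_1, Rnu1a1, Rnu1b6, tRNA-Gln-CTG-4 tRF_other and tRNA-Thr-AGT tRF_5′, above them for Rn7sk, Mir200a and Mir204, and overlap for 18S, Rny1, Rny3 and tRNA-Gly-GCC tRF_5′.

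Y RNAs, small partners of the Ro60 protein, overlapped. Rny1 (chr6:47788069-47788180, minus strand) had 7302, 3572 and 6392 CPM in WT and 4492, 7965 and 8123 CPM in KO (log2 fold change 0.25 ± 0.39, adjusted p = 0.906 with edgeR). Rny3 (chr6:47781624-47781725, plus strand) had 4378, 2806 and 4605 CPM in WT and 3709, 4992 and 5318 CPM in KO (log2 fold change 0.25 ± 0.68). In corpus fluid Rny1 was called higher in KO, with a log2 fold change of 2.05 (adjusted p = 0.00235), and the difference between the segments did not pass the test (adjusted p = 0.108). Over the class of other small RNAs, 103 of 150 were tested and 81 were above 0 (median 0.23), with 1 lower and 12 higher at a nominal p under 0.05 (6 higher without WT 1, WT 3 or KO 1). One of the latter was Gm22982, an RNA gene at chr4:121134657-121134975, plus strand, with 7.45, 13.5 and 8.23 CPM in WT and 50.1, 41.5 and 25.7 CPM in KO (log2 fold change 2.01 ± 0.57 (SE), edgeR adjusted p = 0.163).

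Small nucleolar RNAs, many of which guide modification of rRNA, were sparse. Of 201 genes listed, 68 were tested, 42 above and 26 below 0 (median 0.11), with 2 lower and 3 higher at a nominal p under 0.05. The 20 tested C/D box genes (60 listed) had a median of 0.07. The 8 tested H/ACA box and scaRNA genes (31 listed) were all below 0 (median −0.63), with sums of 13.8, 15.2 and 12.7 CPM in WT and 6.31, 9.47 and 9.20 CPM in KO, and their genotypes did not overlap. Genes of the U3 group, the most counted, had 17 of 19 above 0 (median 0.32). Among them, Gm22865 had 16.5, 15.2 and 9.13 CPM in WT and 33.3, 33.8 and 19.1 CPM in KO (log2 fold change 1.08 ± 0.40 (SE), edgeR adjusted p = 0.278), while the most counted gene Rnu3b1 had 53.1, 59.5 and 47.9 CPM in WT and 67.6, 79.5 and 53.0 CPM in KO.

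The miRNA genes were higher in KO for most members. Sequences of the mature miRNAs on which this section turns are given with the seed (bases 2 to 8), the part that pairs with targets, in capitals (RefSeq, GRCm38.p6), and grouped by seed. The miR-200 family, enriched in epithelia, has 2 seeds that differ at 1 base, and miR-30 and miR-204 have their own.
mmu-miR-200a-3p: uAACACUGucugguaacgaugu
mmu-miR-141-3p: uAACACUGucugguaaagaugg
mmu-miR-200b-3p: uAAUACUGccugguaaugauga
mmu-miR-200c-3p: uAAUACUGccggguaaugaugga
mmu-miR-429-3p: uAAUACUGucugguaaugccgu
mmu-miR-30a-5p: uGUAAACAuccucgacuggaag
mmu-miR-30c-5p: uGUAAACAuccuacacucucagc
mmu-miR-204-5p: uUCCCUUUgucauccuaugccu
mmu-miR-21a-5p: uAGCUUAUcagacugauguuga

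Of 406 miRNA genes listed, 277 were tested, 216 were above 0 (median 0.47), and 41 were higher and 0 lower at a nominal p under 0.05 in edgeR (DESeq2 on the 6 libraries called 26 higher and 0 lower). The 26 are not separate observations, since they include many copies of Mir669a. Mir669a-1 belongs to a set of 12 entries with the same counts in the 6 caput libraries. Mir703 and its related copies Gm24276, Gm26377 and Gm26384 were also among the 26. Libraries did not overlap for 82 higher genes (29.6%, beside 13.3% of all RNAs) and 3 lower genes (1.08%, beside 12.7%). Without KO 1, 246 of 296 were above 0, with 36 higher and 1 lower at a nominal p under 0.05, and leaving out any library left 28 to 49 higher. The class share of counts overlapped between genotypes, and its most counted entries, Gm47295 and Gm47299, overlap genes of 7SL, the RNA of the signal recognition particle. Leaving out entries related to 7SL, the 268 others had summed levels of 3515, 2499.6 and 2816 CPM in WT and 3374, 4459.6 and 5006 CPM in KO, with WT 1 above KO 1 and a median log2 fold change of 0.48. Of the 7SL-related entries, Gm47295 had 4121, 4995 and 6190.0 CPM in WT and 2554, 4787 and 4108 CPM in KO.

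In the miR-200 family, all 5 genes were above 0 (median 0.89) and 4 had every KO library above every WT library. This stands beside 29.6% of miRNA genes and 13.3% of all RNAs. Mir200a had 82.4, 38.0 and 43.4 CPM in WT and 108, 111 and 137 CPM in KO (log2 fold change 1.119 ± 0.49 (SE), edgeR adjusted p = 0.399). Of the fits tried, DESeq2 on the 6 libraries called Mir200a higher, and its relation to the number of epithelial cells shed was not tested. Mir200c had 21.95, 21.5 and 24.9 CPM in WT and 41.8, 40.8 and 44.4 CPM in KO (log2 fold change 0.89 ± 0.35 (SE), edgeR adjusted p = 0.302). Mir141, with the seed of Mir200a, was the member that overlapped, with 12.9, 6.65 and 6.89 CPM in WT and 8.19, 9.14 and 15.6 CPM in KO. Summed, the family had 182, 103 and 124.9 CPM in WT and 241, 246 and 298 CPM in KO.

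All 6 genes of the miR-30 family were above 0 (median 0.86) and 3 had a nominal p under 0.05. Libraries did not overlap for 5 of them, beside 29.6% of miRNA genes and 13.3% of all RNAs that were higher without overlap. The miR-30 sums were 180.3, 112 and 129 CPM in WT and 201, 244 and 307 CPM in KO. Mir204, which is processed from an intron of Trpm3, had 48.2, 30.4 and 35.9 CPM in WT and 77.8, 72.3 and 89.2 CPM in KO (log2 fold change 1.06 ± 0.38 (SE), edgeR adjusted p = 0.278). The 12 let-7 genes were all above 0 (median 0.29), of which 1 did not overlap (beside the same 29.6% and 13.3%), with sums of 572, 464 and 537 CPM in WT and 486, 795 and 765 CPM in KO. The 8 listed genes of the miR-10, miR-99 and miR-100 families and their cluster partners had 7 above 0 (median 0.47), and those of the miR-17/92 clusters 9 of 10 (0.71, with 4 not overlapping, beside the same 29.6% and 13.3%). Mir21a, the most counted miRNA gene outside 7SL, had 193, 127 and 109.6 CPM in WT and 228, 277 and 317 CPM in KO (log2 fold change 0.94 ± 0.42 (SE), edgeR adjusted p = 0.410). Mir200a, Mir200c, Mir204, Mir141 and Mir21a were chosen after their values were seen.

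The miRNA entry with the smallest p was Gm24276 (chr1:8816138-8816247, plus strand), with 1.20, 0.525 and 0.449 CPM in WT and 10.2, 6.42 and 2.71 CPM in KO (log2 fold change 3.10 ± 0.84 (SE), edgeR adjusted p = 0.163). Gm24276 is similar to the miR-703 hairpin, Mir703 (chr5:98475556-98475664, minus strand), which had 1.46, 0.875 and 1.35 CPM in WT and 13.4, 8.89 and 4.33 CPM in KO (log2 fold change 2.83 ± 0.80). The 2 sequences differ by 8 mismatches and gaps, and the mature miR-703, in capitals where present, is not whole in Gm24276. Reads from the 2 and from their further copies cannot be told apart with certainty, and Mir703 and Gm22982 were chosen after their values were seen.
Mir703: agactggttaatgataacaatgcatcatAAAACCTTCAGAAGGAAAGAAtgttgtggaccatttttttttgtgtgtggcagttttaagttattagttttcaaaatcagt
Gm24276: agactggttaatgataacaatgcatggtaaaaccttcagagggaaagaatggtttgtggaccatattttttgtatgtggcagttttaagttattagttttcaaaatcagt

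The piRNA loci, source regions of the small RNAs that guard the germ line, were low in caput fluid. Of 442 listed, 352 were tested, with 197 below and 155 above 0 (median −0.08), and 2 were lower and 1 higher at a nominal p under 0.05. The locus with the highest level, pi-Ctdsp2.1, had 771, 467 and 556 counts in WT and 887, 1651 and 1011 counts in KO. Mir26a-2, a miRNA gene in an intron of Ctdsp2, had 731, 423 and 520 counts in WT and 835, 1562 and 958 counts in KO, so that nearly all counts of this locus matched those of the miRNA. The locus was chosen after its values were seen. Of 16 mitochondrial tRNAs, 6 were tested, with 3 on each side of 0 and 0 at a nominal p under 0.05 in edgeR (0 by DESeq2).

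To ask where caput fluid differs from the next segments, the KO effect in caput was tested against that in corpus and in cauda in the same edgeR fit. Against corpus fluid, 34 RNAs (1.68%) had a lower KO effect in caput and 3 (0.148%) a higher one. Against cauda fluid there were 0 lower (0%) and 0 higher (0%). The 34 were all piRNA loci. Summed, they had 41.9, 67.7 and 65.6 CPM in WT and 51.5, 32.5 and 30.7 CPM in KO in caput fluid, but 32.3, 26.5 and 41.1 CPM in WT and 527, 121 and 934 CPM in KO corpus fluid, so the difference lay in corpus KO libraries, 1 and 3 above all. The median log2 fold change of the 34 was −0.78 in caput and 3.88 in corpus. In cauda fluid they had 72.7, 148 and 154 CPM in WT and 283, 49.2 and 131 CPM in KO, which overlapped. The 34 calls rested on the fit and on single libraries: 0 remained with the library size alone as scaling, and 0 without any of WT caput 2 and 3, KO caput 1, 2 and 3, WT corpus 2 and 3 and KO corpus 1 and 3, whereas 55 were called without KO corpus 2.

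The 3 higher ones were antisense reads of tRNA-Thr-AGT-1, -2 and -3. For tRNA-Thr-AGT-1, the corpus fluid had 4.33, 3.20 and 2.42 CPM in WT and 0.802, 1.08 and 0.829 CPM in KO, a log2 fold change of -1.84, opposite to the 2.12 of caput fluid (difference 3.95 ± 0.77 SE, adjusted p = 0.0155 with edgeR). KO was above WT in all libraries of the caput and below WT in all libraries of the corpus. The KO corpus libraries had total counts of only 2474993, 3373869 and 1948718, so their levels here rest on a few reads each, near the floor. In cauda fluid it had 4.23, 9.16 and 9.86 CPM in WT and 3.44, 4.13 and 8.65 CPM in KO, which overlapped. Without KO caput 1 or 2, WT caput 2 or 3, WT corpus 2 or KO corpus 1 or 3 none of the 3 was called.

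**Figure D5:**
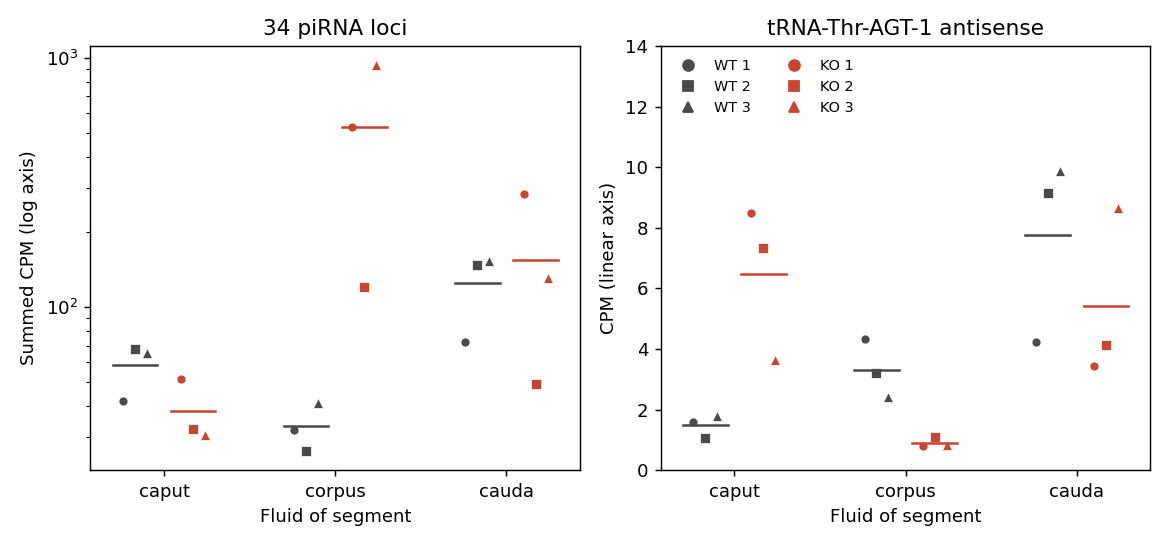
Left, summed CPM (log axis) of the 34 piRNA loci whose KO effect differed between caput and corpus fluid; right, CPM of tRNA-Thr-AGT-1 antisense reads, both in each caput, corpus and cauda fluid library by genotype, with a line at the mean of 3. The piRNA loci lie between 30.7 and 67.7 CPM in all caput libraries and at 121 to 934 CPM in corpus KO libraries.

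Caput tissue, sequenced by ARM-seq and counted in a separate table, gave no call for any of the named RNAs (adjusted p = 0.9996 with edgeR for Rn7sk). Rn7sk had 171, 202 and 250.4 CPM in WT and 325, 231 and 151 CPM in KO tissue, which overlapped. The log2 fold change of 28S_rRNA_1 in tissue was 0.11, beside -0.76 in fluid. The 2 tables were scaled separately, and no test was made between them.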

How the data were processed

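OTTR-seq libraries of caput fluid were compared (3 WT, 3 KO), with corpus and cauda fluid libraries in the same fit. The deposited values are raw read counts per RNA, from a modified version of tRAX run by the authors: adapters and molecular tags were removed with cutadapt, reads were mapped with bowtie2 to mm10, mature tRNAs (gtRNAdb) and rRNA sequences, and reads with several equally good matches were counted on all of them. UMI-tools is named in the submitters' processing notes, and whether duplicates were removed is not given in the sources used here. Sharing of reads makes related entries move together: 605 of the 3178 entries had the same counts as another entry in all 18 libraries. Shares are parts of 1 total, so a higher share of 1 class lowers others.

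RNAs were filtered with filterByExpr (minimum count 10, total 15) and TMM-scaled, and edgeR 4.0.16 (R 4.3.3) was fitted with group means on 18 fluid libraries with the quasi-likelihood test and Benjamini-Hochberg adjustment. A call needed an adjusted p under 0.05 together with a log2 fold change above 1 in size. The SE given with a log2 fold change was derived from that test, as the size of the change divided by the square root of its F statistic. The common biological coefficient of variation was 0.425. Total counts per caput library ran from 6072858 to 10938460. No intervals on shares are given, since they would cover counting error only and molecules were not shown to be independent. Shares were compared with 2-sided exact permutation tests (scipy 1.17.1, Python 3.11.15). Alternatives were DESeq2 1.42.0, DESeq2 size factors, the library size alone, TMM factors from other RNAs, no filter, the 6 libraries alone, the replicate number as a block and leaving out libraries. The fit was first tested on simulated counts with known changes. Transcript names were matched to GENCODE M21 (GRCm38, the build of mm10) for 1053 of 1057 entries. The labels do not say whether libraries came from separate cohorts, so p-values measure the spread between these pools.

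Named RNAs were the Y RNAs, 7SK and rRNA sequences, sums of 6 anticodons, and per class the RNA with the smallest p (none being called) and the 2 most counted RNAs. For interactions the 4 called RNAs with the smallest p were named. Any other RNA or sum was named after its values were seen. The comparison, the lists and the members were chosen with earlier results of these data known. Caput libraries with the same number did not deviate together (r = −0.23, −0.07 and 0.03). With 3 libraries per group, this cannot show whether libraries of the same number were collected or prepared as sets. Sequences of nuclear tRNAs and of 7SL-related entries are not reported here, and authors' fold changes were not used.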

Additional observations from a re-analysis of the deposited data

Results flagged for a closer look

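The KO effect of caput fluid differed from that of corpus fluid by edgeR's interaction term for 37 RNAs, 34 lower and 3 higher in caput, and each was picked out by that test of the difference. Among the 34 piRNA loci, 15-qD3-14639.3 had a difference of −4.81 (log2), with 1.46, 1.57 and 1.497 CPM in WT and 1.32, 1.24 and 0.947 CPM in KO in caput and 0.448, 0.659 and 1.01 CPM in WT and 16.4, 3.78 and 26.5 CPM in KO in corpus fluid. The locus 17-qA3.3-27363.1 had −4.82, with 0.798, 2.45 and 3.44 CPM in WT and 1.22, 0.988 and 0.812 CPM in KO in caput and 2.24, 0.848 and 2.01 CPM in WT and 20.1, 4.86 and 41.0 CPM in KO in corpus fluid. In both, corpus KO 1 and KO 3 were the highest libraries. Antisense reads of tRNA-Thr-AGT-1 and of tRNA-Thr-AGT-3, which hold the same counts in caput fluid, had a difference of 3.95 each. The adjusted p was 0.0155 for all 4. Leaving out WT caput 1 left 8 and 2 calls, and leaving out WT corpus 1 left 19 and 2. The part of single libraries in these differences was not tested further.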

How the results depend on the processing

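On the 18 libraries, edgeR called no RNA in caput fluid under any scaling or filter tried, with the replicate block or without any 1 caput library. DESeq2 on the 18 libraries called 2 lower and 7 higher RNAs, edgeR on the 6 caput libraries 0 and 28, and DESeq2 on the same libraries 68 and 63. For the anticodon sums these fits called 1 lower and 1 higher, 1 and 5, and 19 and 9. The cause was not tested. Same-numbered caput libraries did not deviate together, and the replicate block left 106 RNAs below and 97 above 0 with an unadjusted p under 0.05, against 104 and 110 without it. Against corpus fluid, the 34 lower effects became 21 with DESeq2 size factors, 17 with no filter, 0 with the library size alone, 0 with TMM factors from the other RNA classes and 0 with the replicate block, and the 3 higher ones 6 with DESeq2 and 0 with the replicate block. Without 1 library they ran from 0 to 55 and from 0 to 4. Against cauda fluid there was 1 lower with no filter and 1 with the replicate block, and 16 lower and 7 higher with DESeq2, with ranges of 0 to 14 and of 0 to 7 without 1 library, both highest counts without KO cauda 3. Leaving out corpus and cauda libraries was chosen after seeing the data.

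The median of all RNAs moved by 0.22 (library size alone), -0.17 (TMM from the other classes), 0.17 (no filter), 0.19 (6 libraries alone), 0.14 (identical entries once) and by up to 0.18 without 1 library, on the log2 scale. Relative to it, the full-length tRNA median (1.99) was 1.33 with no filter and 0.71 with DESeq2, tRNA loci had 0.66 with DESeq2, and snRNAs had 0.35 with no filter and 0.35 with DESeq2. Without 1 library these medians ran from 1.38 to 2.06 (full-length tRNA), -0.47 to -0.22 (tRF_5′), -0.78 to -0.30 (tRF_other), 0.47 to 0.75 (tRNA loci), -0.20 to 0.38 (antisense), -0.54 to 0.95 (mitochondrial tRNA), -0.48 to -0.30 (nuclear rRNA), 0.10 to 0.43 (snRNA) and 0.11 to 0.36 (other small RNA).

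Where each rRNA type and anticodon was represented by 1 entry, its most counted, the KO minus WT share in percentage points turned to 0.107 for tRF_5′, 0.0573 for tRF_other and -0.000804 for mitochondrial rRNA. Without 1 library these differences ran from -1.85 to 0.660 (tRF_5′), -1.17 to 0.332 (tRF_other), -0.000673 to 0.00294 (antisense), -0.000185 to 0.000553 (mitochondrial tRNA), -0.000452 to 0.00183 (mitochondrial rRNA) and -0.135 to 0.140 (miRNA).

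Of the named log2 fold changes, 18S turned to 0.00260 with the library size alone. With TMM factors from the other classes, 5.8S turned to -0.0325, the tRF_3′ of Gly-GCC, Gln-TTG and Glu-TTC to -0.0489, -0.0199 and -0.0681, and the tRF_5′ of Gly-CCC, Val-CAC, Val-AAC and Gln-TTG to -0.21, -0.22, -0.27 and -0.32. These 4 were -0.0285, -0.0334, -0.0851 and -0.12 with DESeq2 size factors, -0.14, -0.14, -0.19 and -0.25 with no filter, -0.0346, -0.0396, -0.0912 and -0.12 with DESeq2, -0.0104, -0.0265, -0.0765 and -0.10 in edgeR on 6 libraries and -0.12, -0.13, -0.18 and -0.22 in DESeq2 on 6 libraries. Glu-TTC tRF_other turned to -0.15 with the replicate block, which turned no other named direction. Without 1 library, tRF_5′ sums ran from -0.25 to 0.0861 (Gly-GCC), -0.0356 to 0.30 (Gly-CCC), -0.34 to 0.36 (Val-CAC), -0.31 to 0.31 (Val-AAC), -0.16 to 0.45 (Gln-TTG) and -0.28 to 0.0943 (Glu-TTC), tRF_other sums from -1.19 to 1.55 (Gly-GCC), -1.08 to 1.34 (Gly-CCC), -0.86 to 1.39 (Val-CAC), -0.87 to 1.22 (Val-AAC) and -1.49 to 1.76 (Glu-TTC), tRF_3′ sums from -0.13 to 0.45 (Gln-TTG) and -0.19 to 0.47 (Glu-TTC), and 18S from -0.23 to 0.0229. Over all settings, 776 named values kept their direction and side of the threshold, 49 reversed, and 42 newly passed the threshold, all in DESeq2 or on the 6 libraries. Depth limits the full-length tRNAs, some of which had 0 counts in a WT library.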
